A study of Homo sapiens with 9 samples.

Results

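The 10 genes BCL2, BCL2L1, BCL2L2, MCL1, BCL2L11, BMF, BIK, BID, BAK1 and HRK, which encode proteins of the BCL2 family that hold back or set off cell death at mitochondria, were followed through 9 RNA sequencing libraries. They were taken by symbol from a table of 70116 Ensembl gene IDs, and all 10 were found and passed the filter on low counts that left 19408 genes. The cells were U2OS, an established human osteosarcoma line. There were 3 groups of 3 libraries: PERK KO cells on Palbociclib, WT cells on Palbociclib and WT cells on vehicle, with the drug given for 4 days. PERK is encoded by EIF2AK3, senses unfolded protein in the endoplasmic reticulum and was targeted with CRISPR/Cas9 in the knockout, and palbociclib inhibits the cell cycle kinases CDK4 and CDK6. Knockout cells on vehicle were not analysed here, so whether the drug response itself differs between genotypes was not tested. The labels do not say whether the knockout is a single clone, nor whether the numbered sets were separate cultures, so each p-value is set against library-to-library spread that may be only technical.

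Proteins of this family meet at the outer mitochondrial membrane. The survival proteins BCL2, BCL-XL (from BCL2L1), BCL-w (from BCL2L2) and MCL1 bind and restrain the pore formers BAK and BAX. BH3-only proteins, such as BIM (from BCL2L11), BMF, BIK, BID and HRK, occupy the groove of the survival proteins or activate the pore formers directly. An open pore releases cytochrome c, which assembles the apoptosome and activates caspases. Several members are also controlled by splicing, protein turnover, phosphorylation or cleavage. Gene-level counts of mRNA do not show these, nor which splice form of BCL2L1, MCL1 or BCL2L11 was made.

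Library totals ran from 33674039 to 42577874 counts. The targeted gene EIF2AK3 had 19.7, 18.7 and 17.8 CPM in knockout libraries, against 35.7, 36.8 and 31.8 CPM in wild-type libraries on the drug and 31.7, 34.8 and 32.8 CPM on vehicle (CPM are counts scaled to library size, here with TMM factors). Its mRNA was thus lower but present in all 3 libraries labelled knockout, and no protein was measured. Of 10 osteoblast lineage markers, 7 averaged at least 1 CPM, and their summed level was 6500 to 8360 CPM in knockout cells, 6320 to 7480 CPM in wild-type cells on the drug and 4090 to 4460 CPM on vehicle. SP7, BGLAP and IBSP, which mark the lineage too, did not pass the filter. Of 6 epithelial markers, 5 averaged at least 1 CPM, with sums of 554 to 578, 844 to 898 and 633 to 669 CPM in the same order of groups. KRT8 (means of 373, 574 and 420 CPM) and KRT18 (190, 289 and 225 CPM) made up most of these sums. EPCAM and CDH1 averaged 4.46 and 2.46 CPM over all libraries, and KRT19 did not pass the filter. Endothelial markers summed to 6.43 to 8 CPM over all libraries and haematopoietic markers to 0.329 to 0.895 CPM, with 2 of the 6 haematopoietic markers at 0 everywhere. The part of these shifts in the results below was not tested. In bulk RNA, fewer cells of a type and less RNA per cell cannot be told apart.

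Since counts grow with the length of a transcript, members were compared with each other per length. In CPM per kilobase of annotated exon, MCL1 was the most abundant member in each group, with a mean of 55 ± 1.2 in knockout cells on palbociclib, 63.2 ± 1.98 in wild-type cells on palbociclib and 56.4 ± 0.96 in wild-type cells on vehicle (mean ± SD, n = 3 here and below). BCL2L1 followed at 40.8 ± 1.11, 42.1 ± 2.58 and 36.1 ± 3.49 in the same order of groups. BAK1, the pore former, came after them at 17 ± 0.898, 19.3 ± 1.25 and 18.4 ± 0.481. These 3 genes did not overlap each other in any group.

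BCL2L2 stood at 10.9 ± 0.388, 9.6 ± 0.0533 and 9.74 ± 0.438 CPM per kilobase in knockout cells on palbociclib, wild-type cells on palbociclib and wild-type cells on vehicle. Among the 5 BH3-only members BID was the most abundant, at 8.23 ± 0.402, 7.71 ± 0.491 and 5.85 ± 0.506 CPM per kilobase in that order. BCL2L11 came next at 3.31 ± 0.306, 3.44 ± 0.271 and 4.24 ± 0.397. BMF, BCL2, HRK and BIK each stayed below 2 CPM per kilobase in every library. In vehicle-treated cells the ranges of BMF (1.02 to 1.88), BCL2 (1.26 to 1.47), HRK (0.831 to 1.33) and BIK (0.84 to 1.28) overlapped, so their order was not separated by the spread. In knockout cells BMF (1.02 to 1.05) lay above BIK (0.339 to 0.758), BCL2 (0.387 to 0.437) and HRK (0.366 to 0.409), and these 3 genes overlapped each other.

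Within the survival group the proportions were uneven. MCL1 made up 51.3 ± 1.19% of the summed per-kilobase level of the 4 survival mRNAs in knockout cells, 54.7 ± 0.994% in wild-type cells on palbociclib and 54.5 ± 1.86% on vehicle. BCL2L1 made up 38.1 ± 0.978%, 36.4 ± 1.15% and 34.8 ± 2.11%, and BCL2L2 10.2 ± 0.317%, 8.31 ± 0.339% and 9.41 ± 0.281%. BCL2, the founding member of the family, made up 0.388 ± 0.0257%, 0.631 ± 0.0524% and 1.29 ± 0.158%. The ranges of the BCL2 share did not overlap between groups: 0.36 to 0.411% in the knockout, 0.571 to 0.668% in wild-type cells on the drug and 1.17 to 1.47% on vehicle. Summed over the 4 genes, the survival mRNAs reached 107 ± 0.563, 116 ± 4.13 and 104 ± 3.94 CPM per kilobase. The mRNAs of the 5 BH3-only members summed to 13.5 ± 0.661, 14 ± 0.487 and 13.8 ± 0.386, which overlapped between all groups. This sum leaves out BH3-only genes that are not members, such as PMAIP1, which averaged 29.5, 54.8 and 52.4 CPM in the same order of groups. BBC3 and BAD, also left out, averaged 21.8, 19.6 and 16.7 CPM and 17.6, 15.3 and 13.2 CPM. These values are not divided by length, so they cannot be set against the sum. With the longest transcript as the length, BID and BCL2L2 changed places in both groups on palbociclib, BCL2 moved above BIK in these groups, above HRK in wild-type cells on palbociclib and above BMF on vehicle, and the first 3 genes kept their order.

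**Figure D1:**
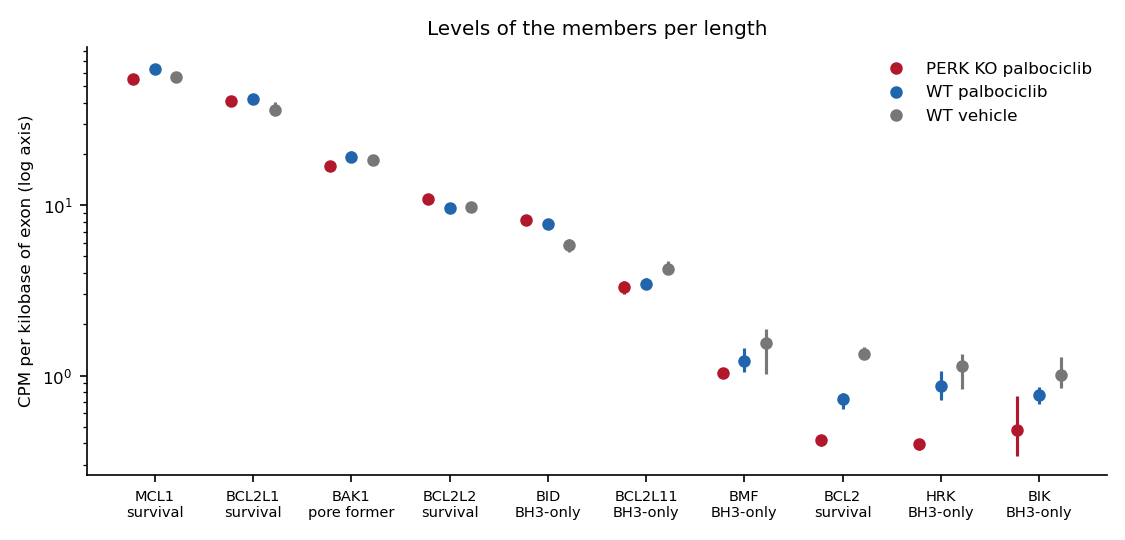
Level of each member per kilobase of exon (CPM per kilobase, log axis) in PERK KO cells on palbociclib, WT cells on palbociclib and WT cells on vehicle. Points are means of 3 libraries and bars span the lowest and highest library. MCL1, BCL2L1 and BAK1 lead in each group, and BMF, BCL2, HRK and BIK lie lowest.

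The first comparison set palbociclib against vehicle in wild-type cells. BCL2 and BCL2L11 fell with the drug, while BID, BCL2L1 and MCL1 rose. BCL2L2, BAK1, BMF, BIK and HRK did not pass the threshold, an adjusted p under 0.05 from the quasi-likelihood test of edgeR, Benjamini-Hochberg adjusted over all genes. Called members were thus 5 of 10, 3 higher and 2 lower, against 43.7% of all tested genes (21.3% higher and 22.3% lower). The median log2 fold change was -0.16 over the members and -0.02 over all tested genes.

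BCL2 (ENSG00000171791.14, chromosome 18, 63123346 to 63320128 on GRCh38) had 9.08, 9.27 and 7.45 CPM on palbociclib, against 14.9, 14.8 and 17.3 CPM on vehicle. Each drug-treated library lay below each vehicle library. The drug-treated level was 55% of that on vehicle, which is -0.86 as log2 fold change (SE 0.0993, edgeR adjusted p = 7.55e-07). That change was larger in size than 91.2% of those of all tested genes. The counts behind it were 308, 344 and 283 on palbociclib, against 587, 611 and 627 on vehicle.

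Of the other survival genes, MCL1 (ENSG00000143384.14, chromosome 1, 150574551 to 150579738), which encodes a short-lived protein, had 276, 285 and 268 CPM on palbociclib, against 246, 251 and 242 CPM on vehicle. The groups were separate, with a small difference (log2 fold change 0.17, SE 0.0456, edgeR adjusted p = 0.00579). BCL2L1 (ENSG00000171552.14, chromosome 20, 31664452 to 31723989) had 147, 141 and 130 CPM on palbociclib, against 133, 114 and 112 CPM on vehicle. Here the lowest drug-treated library lay under the highest vehicle library, and the log2 fold change was 0.22 (SE 0.0616, edgeR adjusted p = 0.0068). BCL2L2 (ENSG00000129473.11, chromosome 14, 23298790 to 23311759) had 40.3, 40 and 40.4 CPM on palbociclib, against 41.7, 42 and 38.7 CPM on vehicle (log2 fold change -0.02, SE 0.0536, edgeR adjusted p = 0.766).

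Among the BH3-only genes, BID (ENSG00000015475.19, chromosome 22, 17734138 to 17774770), whose protein is cut by caspase-8 and links death receptors to mitochondria, had 36.8, 33.1 and 32.9 CPM on palbociclib, against 28.3, 26.1 and 23.8 CPM on vehicle. All drug-treated libraries were the higher ones (log2 fold change 0.40, SE 0.0688, edgeR adjusted p = 9.96e-05). BCL2L11 (ENSG00000153094.25, chromosome 2, 111119378 to 111168447), encoding the broad survival-protein antagonist BIM, had 21.4, 22.4 and 24.9 CPM on palbociclib, against 26.1, 27.4 and 31.2 CPM on vehicle. These groups did not overlap either (log2 fold change -0.30, SE 0.0811, edgeR adjusted p = 0.00546). Its exons overlap those of the non-coding gene MIR4435-2HG on the opposite strand over 727 bases, 10.9% of its exon length, and that gene held 38971 counts in all against 8384 for BCL2L11. The sources used here do not say whether counting used strand, and reads there may be shared. For MIR4435-2HG itself the log2 fold change was -0.07 (edgeR adjusted p = 0.323).

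HRK and BMF did not pass the threshold, and their calls turned on single libraries and on the pairing of sets. HRK (ENSG00000135116.9, chromosome 12, 116856144 to 116881441), encoding the BH3-only protein Harakiri, had 4.89, 5.77 and 7.29 CPM on palbociclib, against 5.7, 8.69 and 9.14 CPM on vehicle. BMF (ENSG00000104081.14, chromosome 15, 40087890 to 40108892), whose protein binds dynein light chain, had 5.72, 6.23 and 7.92 CPM on palbociclib, against 5.54, 9.51 and 10.2 CPM on vehicle. In both genes the first vehicle library was low and the groups overlapped. Within sets, the drug-treated library was the lower one in 3 of 3 sets for HRK and in 2 of 3 for BMF. The log2 fold change was -0.38 for HRK (SE 0.169, edgeR adjusted p = 0.0805) and -0.34 for BMF (SE 0.203, edgeR adjusted p = 0.202). In the fit that took sets as a replicate block both were called lower (adjusted p = 0.00273 for HRK and 0.0211 for BMF). Both were also called without vehicle library 1 (0.00236 and 0.00086) and without the filter on low counts (0.0128 and 0.021), and HRK without wild-type palbociclib library 3 (0.0185). With 1 library left out at a time, the log2 fold change of BMF ran from -0.187 without vehicle library 3 (adjusted p = 0.506) to -0.574 without vehicle library 1. That of HRK ran from -0.263 without wild-type palbociclib library 1 (adjusted p = 0.252) to -0.572 without vehicle library 1. Neither gene was called with RLE size factors, DESeq2 or only the 6 libraries compared. Levels differed between sets, in the blocked model, for HRK (adjusted p = 0.00756), BCL2L11 (0.0115), BCL2L1 (0.0238) and BMF (0.0374), that is for 4 of the 10 members and 8.07% of all tested genes.

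The remaining genes were BAK1 and BIK. BAK1 (ENSG00000030110.14, chromosome 6, 33572547 to 33580293) had 41.7, 45.8 and 40.6 CPM on palbociclib, against 41.7, 40.8 and 39.6 CPM on vehicle (log2 fold change 0.07, SE 0.0591, edgeR adjusted p = 0.36). BIK (ENSG00000100290.3, chromosome 22, 43110748 to 43129712), encoding a BH3-only protein of the endoplasmic reticulum, held few counts, with 22, 27 and 31 counts on palbociclib, against 48, 33 and 32 counts on vehicle. Its log2 fold change was -0.40 with an SE of 0.288 (edgeR adjusted p = 0.283), so a change of moderate size was not detectable at this depth. Without vehicle library 1 the estimate was -0.197.

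**Figure D2:**
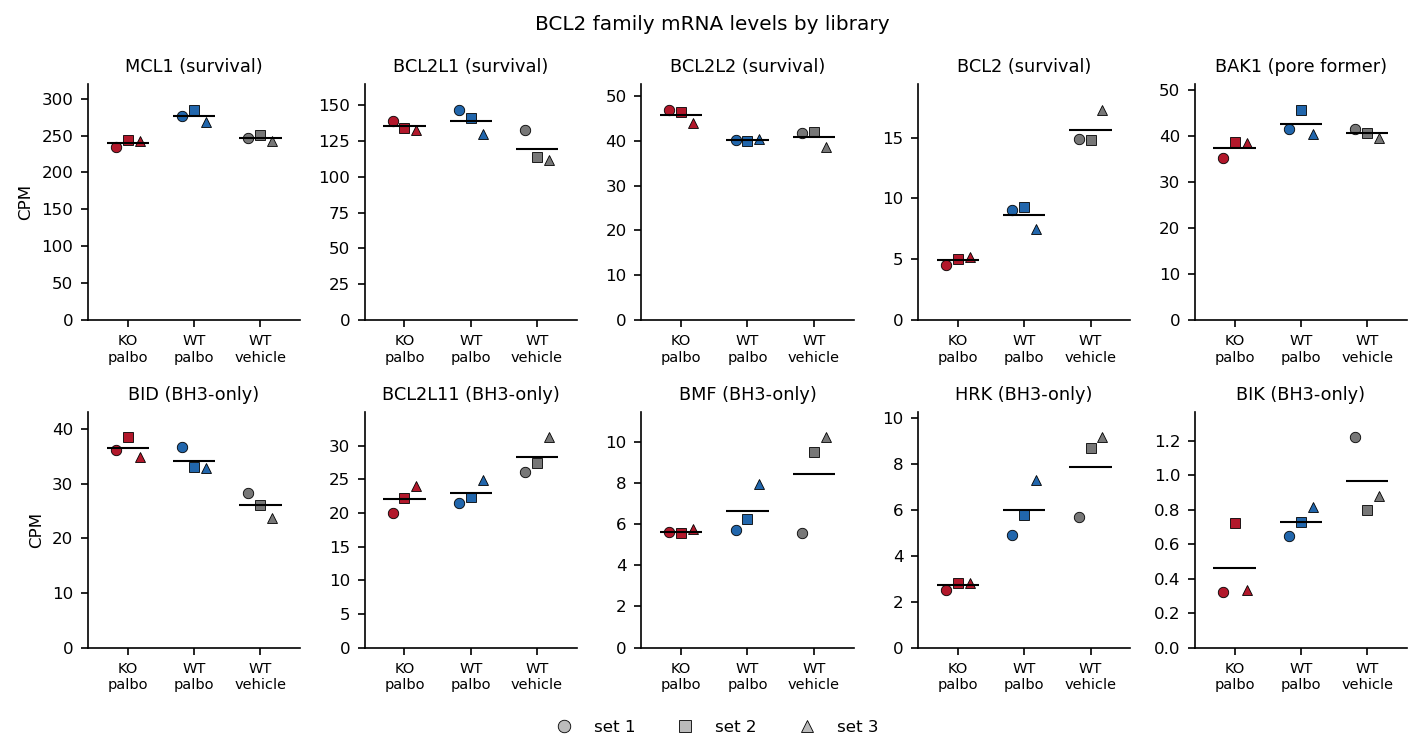
CPM of each member in each library, with PERK KO cells on palbociclib left of WT cells on palbociclib and WT cells on vehicle. Symbols mark the set number, horizontal lines the mean of 3 libraries, and each axis starts at 0. BCL2 forms 3 separate levels (4.55 to 5.15, 7.45 to 9.27 and 14.8 to 17.3 CPM), while the vehicle library of set 1 lies low for HRK and BMF.

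The second comparison set PERK KO cells on palbociclib against WT cells on palbociclib. HRK, BCL2, MCL1 and BAK1 were lower in the knockout, and BCL2L2 was higher. BCL2L1, BCL2L11, BMF, BIK and BID did not pass the threshold. In all, 5 of 10 members were called, 1 higher and 4 lower, against 27.9% of all tested genes (14.9% higher and 13% lower). The median log2 fold change was -0.19 over the members and 0.01 over all tested genes. These wild-type libraries also stand in the first comparison, so the 2 sets of differences are not independent.

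HRK had 2.51, 2.8 and 2.8 CPM in knockout cells, against 4.89, 5.77 and 7.29 CPM in wild-type cells, both on the drug. Knockout libraries were all lower and spread less. HRK in the knockout reached 45.1% of its wild-type level (log2 fold change -1.15, SE 0.189, edgeR adjusted p = 0.00031), a difference larger in size than 97.4% of those of all tested genes. Counts were 101, 97 and 118 in the knockout, against 166, 214 and 277 in the wild type.

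Because HRK differed most of the members and BCL2L11 is the member best known as a FOXO target, the 250 bases upstream of their RefSeq start sites (GRCh38.p14) are shown 5′ to 3′ with motif matches in capitals. HRK lies on the minus strand (chr12:116881442-116881691) and BCL2L11 on the plus strand (chr2:111120664-111120913). Neither stretch touches an annotated exon, but that of BCL2L11 lies within the annotated span of the gene, which begins at 111119378.
HRK: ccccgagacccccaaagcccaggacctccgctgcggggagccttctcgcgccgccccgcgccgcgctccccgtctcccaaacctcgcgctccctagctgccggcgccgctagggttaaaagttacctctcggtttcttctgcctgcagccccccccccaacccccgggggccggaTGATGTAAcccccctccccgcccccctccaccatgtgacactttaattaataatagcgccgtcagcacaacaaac
BCL2L11: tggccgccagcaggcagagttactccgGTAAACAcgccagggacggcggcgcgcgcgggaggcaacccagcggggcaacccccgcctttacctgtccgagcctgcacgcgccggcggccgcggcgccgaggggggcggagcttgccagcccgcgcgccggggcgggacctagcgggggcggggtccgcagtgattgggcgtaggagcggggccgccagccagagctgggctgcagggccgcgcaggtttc
Motifs were searched on both strands in windows from 250 bases before to 50 after each start site, which the RefSeq table gave for 7 of the 10 members. TGATGNAA, the composite site of ATF4 and CHOP, was found in HRK from position -75 relative to the start, in capitals above, and in 3.62% of all 35116 windows. TGTTTAC, a FOXO site, was found on the other strand in BCL2L11 from position -223, where the printed strand reads GTAAACA, and in 3.42% of windows. The E2F sites TTTCCCGC or TTTGGCGC were in no window of a member and in 2.27% of all windows. Both matches lie in different genes, so none overlapped another, and a match is a description of the sequence, not a bound site. The mRNAs of these factors are given here outside the naming rule, after their values were seen. ATF4 was lower in the knockout on palbociclib than in the wild type by a log2 difference of -0.17 (edgeR adjusted p = 0.00735), and DDIT3, which encodes CHOP, was not called (-0.34, edgeR adjusted p = 0.0838). FOXO1, FOXO3 and FOXO4 rose with palbociclib in wild-type cells by 0.28, 0.16 and 0.35 on the log2 scale. In the knockout on the drug FOXO4 was lower (-0.30, edgeR adjusted p = 0.0142), and FOXO1 and FOXO3 were not called (0.20 and -0.10). With palbociclib in wild-type cells ATF4 and DDIT3 were not called (0.07 and -0.21). E2F1 was lower with palbociclib in wild-type cells (-0.72) and higher in the knockout on the drug (0.17, edgeR adjusted p = 0.0311).

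BCL2 had 4.55, 5 and 5.15 CPM in knockout cells, against 9.08, 9.27 and 7.45 CPM in wild-type cells on the drug. The ranges were separate, and BCL2 in the knockout reached 57% of its wild-type level (log2 fold change -0.81, SE 0.109, edgeR adjusted p = 1.06e-05). MCL1 had 234, 244 and 243 CPM in the knockout, against 276, 285 and 268 CPM in the wild type, also with no overlap (log2 fold change -0.20, SE 0.0456, edgeR adjusted p = 0.00221). BCL2L1 had 139, 134 and 133 CPM in the knockout, against 147, 141 and 130 CPM in the wild type, and the ranges overlapped (log2 fold change -0.04, SE 0.0615, edgeR adjusted p = 0.651).

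BCL2L2 had 47, 46.4 and 44 CPM in knockout cells, against 40.3, 40 and 40.4 CPM in wild-type cells. All knockout libraries were higher (log2 fold change 0.19, SE 0.0534, edgeR adjusted p = 0.0115), and the call was narrowly lost without knockout library 1 (adjusted p = 0.0511). Exons of PPP1R3E on the opposite strand cover 206 bases of BCL2L2, 4.92% of its exon length. PPP1R3E was itself higher in the knockout, at 9.39 ± 0.912 CPM against 6.26 ± 0.685 CPM in the wild type, and its part in the BCL2L2 count was not tested. The read-through gene BCL2L2-PABPN1 shares 813 exon bases and held 0.51% as many counts as BCL2L2.

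BAK1 had 35.2, 38.8 and 38.5 CPM in the knockout, against 41.7, 45.8 and 40.6 CPM in the wild type. The groups were separate by a small gap (log2 fold change -0.19, SE 0.0593, edgeR adjusted p = 0.0218), and the call was lost without library 2 of the wild type on palbociclib (adjusted p = 0.156) and without knockout library 1 (0.12). BIK had 13, 25 and 14 counts in the knockout, against 22, 27 and 31 counts in the wild type, with 1 knockout library inside the wild-type range (log2 fold change -0.70, SE 0.324, edgeR adjusted p = 0.116). Without knockout library 2 it was called lower (adjusted p = 0.0191).

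For BID, BCL2L11 and BMF the groups overlapped. BID had 36.2, 38.5 and 35 CPM in knockout cells, against 36.8, 33.1 and 32.9 CPM in wild-type cells (log2 fold change 0.09, SE 0.0676, edgeR adjusted p = 0.328). BCL2L11 had 20, 22.2 and 24 CPM, against 21.4, 22.4 and 24.9 CPM (log2 fold change -0.06, SE 0.0822, edgeR adjusted p = 0.668). BMF had 5.59, 5.54 and 5.74 CPM, against 5.72, 6.23 and 7.92 CPM (log2 fold change -0.24, SE 0.21, edgeR adjusted p = 0.455). A p above the threshold does not show that levels were equal, and the SE of BMF is wide: without wild-type palbociclib library 3 its estimate was -0.103.

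**Figure D3:**
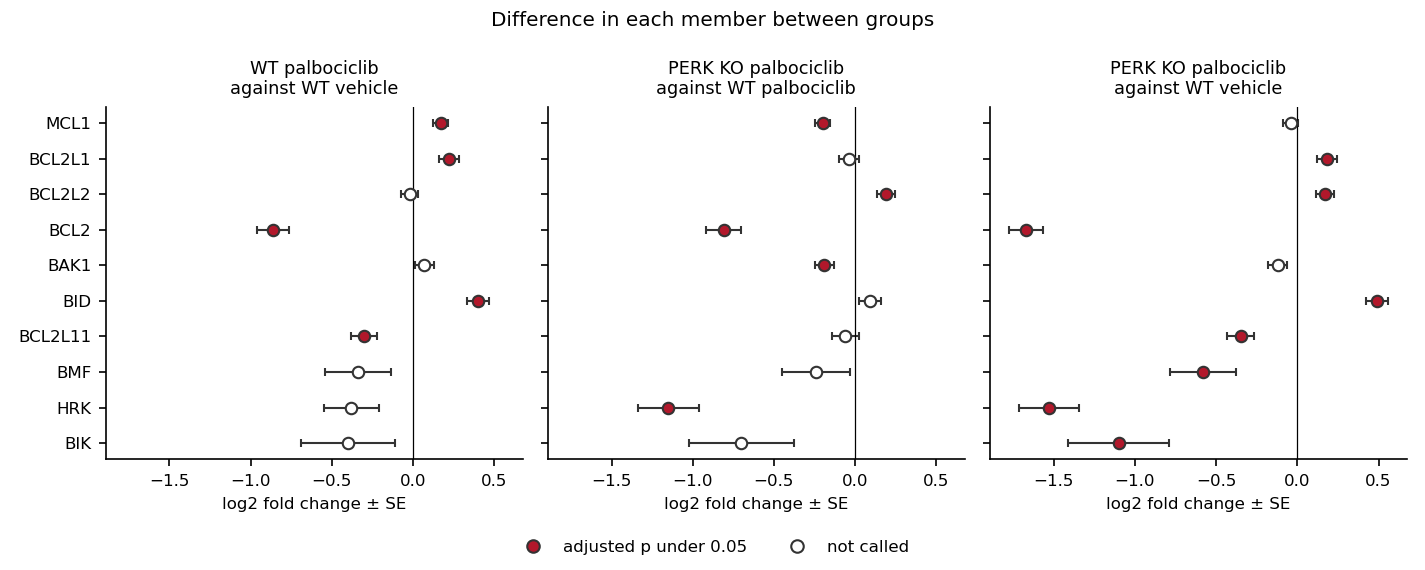
Log2 fold change of each member in 3 comparisons, with bars of 1 SE either side and filled points for an adjusted p under 0.05 from edgeR. BCL2 lies at -0.86, -0.81 and -1.67 from left to right, and HRK at -0.38, -1.15 and -1.53.

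Neighbouring genes on the chromosome were set beside the members in this comparison. The 26 tested genes within 5 Mb of BCL2 had a median log2 fold change of -0.53 in the knockout, with quartiles at -0.74 and -0.35, and 23.1% of them were lower than BCL2. The difference of BCL2 less that median was -0.28. The same neighbours had a median of 0.07 for palbociclib against vehicle in wild-type cells, where BCL2 itself had -0.86. What part of the knockout difference of BCL2 goes with its neighbourhood was not tested.

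For HRK the 90 neighbours had a median of -0.03 in the knockout, and 1.11% of them were lower than HRK. MCL1 stood at -0.20 among 182 neighbours with a median of 0.01. BAK1 at -0.19 lay near the median of its 78 neighbours, -0.22, and BCL2L1 at -0.04 lay above the median of its 93 neighbours, -0.23. BMF at -0.24 was lower than most of its 105 neighbours, whose median was 0.18. The neighbours of BCL2L2 had a median of 0.06, those of BID 0.13, those of BCL2L11 -0.05 and those of BIK 0.02.

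**Figure D4:**
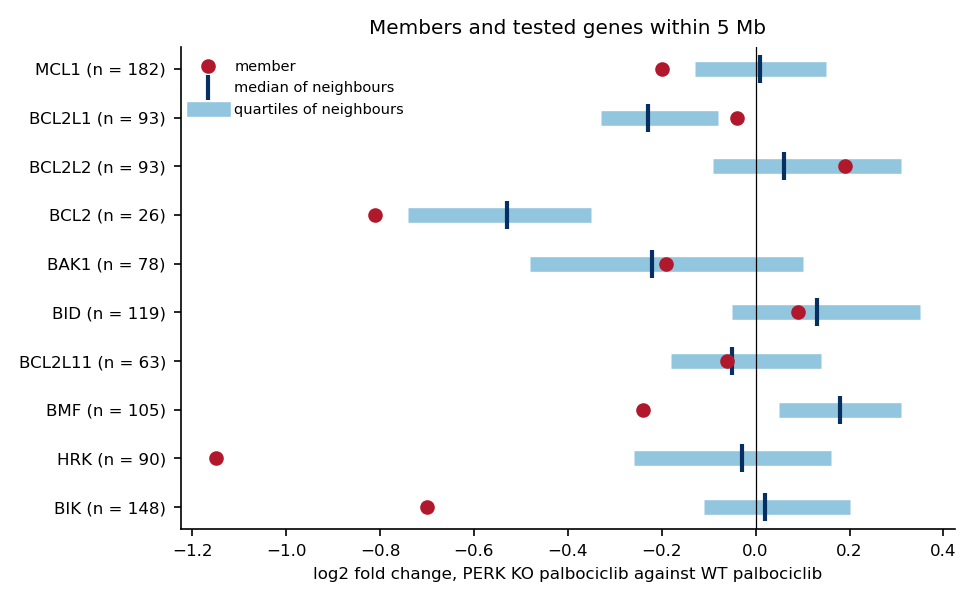
Log2 fold change of each member in PERK KO cells on palbociclib against WT cells on palbociclib (red points), with the median (dark tick) and quartiles (blue bar) of the other tested genes within 5 Mb, whose number is given as n. BCL2 lies below the lower quartile of neighbours that are themselves low (median -0.53), while HRK lies far below neighbours with a median of -0.03.

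The third comparison set PERK KO cells on palbociclib against WT cells on vehicle, so genotype and drug differ at once and cannot be told apart. BCL2 and 4 BH3-only genes (HRK, BIK, BMF and BCL2L11) were lower, while BID, BCL2L1 and BCL2L2 were higher. Called members were 8 of 10, 3 higher and 5 lower, against 51.7% of all tested genes (25.7% higher and 26% lower). The median log2 fold change was -0.24 over the members and -0.01 over all tested genes.

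BCL2 averaged 4.9 ± 0.312 CPM in knockout cells on palbociclib and 15.6 ± 1.39 CPM in wild-type cells on vehicle, or 31.3% (log2 fold change -1.67, SE 0.105, edgeR adjusted p = 9.46e-11). HRK averaged 2.7 ± 0.167 and 7.84 ± 1.87 CPM in the same order (log2 fold change -1.53, SE 0.184, edgeR adjusted p = 4.97e-06), with every knockout library under every vehicle library. BIK averaged 0.459 ± 0.228 and 0.966 ± 0.22 CPM (log2 fold change -1.10, SE 0.309, edgeR adjusted p = 0.00531), again without overlap. BID averaged 36.6 ± 1.79 and 26 ± 2.25 CPM (log2 fold change 0.49, SE 0.0684, edgeR adjusted p = 5.08e-06), and BCL2L11 22.1 ± 2.04 and 28.2 ± 2.65 CPM (log2 fold change -0.35, SE 0.081, edgeR adjusted p = 0.00108).

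The calls of BMF, BCL2L1 and BCL2L2 in this comparison were lost when single libraries were left out. BMF averaged 5.63 ± 0.102 CPM in knockout cells on palbociclib and 8.43 ± 2.53 CPM in wild-type cells on vehicle (log2 fold change -0.58, edgeR adjusted p = 0.0348). Its call was lost without vehicle library 2 (adjusted p = 0.108) or 3 (0.109) and without any 1 of the knockout libraries (0.0849, 0.0945 and 0.0889 without libraries 1, 2 and 3). Leaving out wild-type palbociclib library 2 gave 0.0526. BCL2L1 averaged 135 ± 3.67 and 120 ± 11.6 CPM in that order (log2 fold change 0.18, edgeR adjusted p = 0.0214), lost without vehicle library 2 (0.109) or 3 (0.106) or knockout library 1 (0.0781). BCL2L2 averaged 45.8 ± 1.63 and 40.8 ± 1.84 CPM (log2 fold change 0.17, edgeR adjusted p = 0.0128), lost without vehicle library 3 (0.0747) or knockout library 1 (0.0539). Without vehicle library 3, or without knockout library 1, 5 members were called in place of 8. MCL1 (log2 fold change -0.04, edgeR adjusted p = 0.542) and BAK1 (-0.12, edgeR adjusted p = 0.105) did not pass, and without knockout library 1 the estimate for BAK1 was -0.073.

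Genes with patterns most like those of BCL2, HRK and BMF, which have the widest range of group means among members that average at least 1 CPM (a limit that leaves out BIK), were sought among 11072 other genes with a symbol and a mean of at least 5 CPM. Likeness was the root mean square difference of centred log2 CPM over 9 libraries. EPB41L4B (0.156), the kinetochore gene NUF2 (0.165) and the transcription factor gene SOX18 (0.17) were nearest to BCL2, against a median of 0.688 over the candidates. NUF2 averaged 37.5 ± 5.85 CPM in the knockout, 63.9 ± 5.18 CPM in wild-type cells on palbociclib and 109 ± 7.14 CPM on vehicle. The keratin gene KRT75 (0.145), MDFI (0.182) and ZNF727 (0.187) were nearest to HRK, with a median of 0.676. KRT75 averaged 8.43 ± 1.95, 18.2 ± 4.53 and 25.9 ± 6.93 CPM in the same order. TRIB2 (0.093), PELI1 (0.131) and COL9A2 (0.145) were nearest to BMF, with a median of 0.356. These are descriptions of 9 libraries that share groups and sets.

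Other genes of the pathway gave the surroundings of the members, beginning with the rest of the family. With palbociclib in wild-type cells, 6 of the 10 tested relatives rose (BOK, BNIP3L, BNIP3, BCL2L13, BBC3 and BAD) and BCL2L12 fell, a share of 70% called and a median log2 fold change of 0.32, against 43.7% and -0.02 over all genes. BOK, a relative of BAX and BAK, averaged 172 ± 6.31 CPM on palbociclib and 120 ± 5.18 CPM on vehicle (log2 fold change 0.52, edgeR adjusted p = 5.17e-07). BNIP3L, a receptor for the removal of mitochondria, averaged 199 ± 22.5 and 139 ± 21.6 CPM in that order (0.52, edgeR adjusted p = 0.0104). BAX itself was not called (log2 fold change -0.11).

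In knockout against wild-type cells on the drug, BCL2L13 was higher and PMAIP1 and BNIP3L were lower among the same 10 relatives, a share of 30% called, near the 27.9% of all genes. PMAIP1, which encodes NOXA, a BH3-only protein that binds MCL1, had 30.1, 29.7 and 28.6 CPM in the knockout, against 56, 56.1 and 52.5 CPM in the wild type. All knockout libraries were far below the wild type (log2 fold change -0.90, SE 0.0545, edgeR adjusted p = 2.99e-10). PMAIP1 lies on chromosome 18 within 5 Mb of BCL2 (59899948 to 59904306), and its 36 tested neighbours had a median of -0.39. BNIP3L averaged 129 ± 9.58 CPM in the knockout and 199 ± 22.5 CPM in the wild type (log2 fold change -0.63, edgeR adjusted p = 0.00665), among 90 neighbours with a median of -0.56.

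The list of 12 apoptosome and caspase genes had a median of -0.08 with palbociclib in wild-type cells. Of these genes, 3 rose (CASP10, CASP9 and CASP8) and 4 fell, among them CYCS, PARP1 and CASP2. That is 58.3% of the list called, against 43.7% of all genes. CYCS, encoding cytochrome c, averaged 303 ± 15.9 CPM on palbociclib and 417 ± 17.9 CPM on vehicle (log2 fold change -0.46, edgeR adjusted p = 7.18e-07). CASP10, an initiator caspase, averaged 1.81 ± 0.227 and 0.696 ± 0.223 CPM in that order (1.36, edgeR adjusted p = 7.36e-05). In the knockout on the drug, CYCS was higher and 2 genes, CASP9 among them, were lower, so 25% of the list was called, near the 27.9% of all genes. CASP9, the initiator caspase of the apoptosome, averaged 9.26 ± 0.281 CPM in the knockout and 13.7 ± 0.851 CPM in the wild type (log2 fold change -0.56, edgeR adjusted p = 3.44e-05), among 86 neighbours with a median of -0.09.

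Of 8 tested inhibitors of apoptosis and their antagonists, BIRC3 and BIRC5 fell and BIRC7 rose with palbociclib in wild-type cells, a share of 37.5% called, against 43.7% of all genes. Counts of BIRC7 were few and uneven, with 20, 15 and 56 on palbociclib, against 8, 9 and 6 on vehicle. BIRC5, encoding survivin, which also serves in mitosis, averaged 242 ± 20.9 CPM on palbociclib and 394 ± 13.5 CPM on vehicle (log2 fold change -0.70, edgeR adjusted p = 5.47e-06). BIRC3 averaged 1.31 ± 0.214 and 2.2 ± 0.0936 CPM (-0.75, edgeR adjusted p = 0.00207). In the knockout on the drug HTRA2 alone was called (12.5% of the list, against 27.9% of all genes), at 37.4 ± 1.98 CPM against 30.9 ± 0.685 CPM in the wild type (0.27, edgeR adjusted p = 0.00112).

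Among 10 tested death receptor genes and their adaptors, 7 rose and 0 fell with palbociclib in wild-type cells, with a median of 0.28. Of all genes, 21.3% were higher and 22.3% lower in this comparison. The adaptor TRADD averaged 15.8 ± 0.709 CPM on palbociclib and 9.84 ± 1.07 CPM on vehicle (log2 fold change 0.68, edgeR adjusted p = 4.38e-06), and TNFRSF21, encoding death receptor DR6, 36 ± 1.75 and 23.9 ± 0.362 CPM (0.59, edgeR adjusted p = 5.8e-07). In the knockout on the drug 0 were higher and 4 lower (TNFRSF21, RIPK1, TNFRSF10B and CFLAR), with a median of -0.10, against 14.9% higher and 13% lower of all genes. TNFRSF21 averaged 16.9 ± 1.52 CPM in the knockout and 36 ± 1.75 CPM in the wild type (-1.09, edgeR adjusted p = 4.81e-10), among 69 neighbours with a median of -0.21. RIPK1 averaged 31.5 ± 1.66 and 37.5 ± 3 CPM (-0.25, edgeR adjusted p = 0.00511).

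Of 18 genes that regulate transcription or turnover of members, 8 rose and 3 fell with palbociclib in wild-type cells (median 0.10), so 61.1% were called, against 43.7% of all genes. E2F1, a cell cycle factor that also drives death genes, averaged 56 ± 1.92 CPM on palbociclib and 92 ± 4.16 CPM on vehicle (log2 fold change -0.72, edgeR adjusted p = 5.98e-09), and TP73, a relative of p53, 8.04 ± 1.32 and 16.2 ± 0.796 CPM (-1.02, edgeR adjusted p = 5.7e-07). In the knockout on the drug 3 were higher and 7 lower (median -0.11), so 55.6% were called, against 27.9% of all genes. TRIB3, a pseudokinase gene induced by ATF4 and CHOP, averaged 14.4 ± 1.13 CPM in the knockout and 30.9 ± 3.43 CPM in the wild type (-1.10, edgeR adjusted p = 3.04e-09), among 69 neighbours with a median of -0.57. NFKB1 averaged 34.9 ± 0.912 and 47.7 ± 2.42 CPM (-0.45, edgeR adjusted p = 4.79e-06), among 40 neighbours with a median of -0.25.

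Between the knockout on palbociclib and vehicle-treated wild-type cells, the other family genes had 6 higher and 2 lower of 10 (median 0.40). The apoptosome and caspase genes had 2 and 7 of 12 (-0.22), and the inhibitors and antagonists 2 and 2 of 8 (-0.07). The death receptor and adaptor genes had 4 and 2 of 10 (0.14), and the regulators 6 and 6 of 18 (0.00). The shares called were 80%, 75%, 50%, 60% and 66.7% in that order of lists, against 51.7% of all genes. Of the other family genes, PMAIP1 averaged 29.5 ± 0.765 CPM in the knockout on the drug and 52.4 ± 2.24 CPM in the wild type on vehicle (log2 fold change -0.83, edgeR adjusted p = 1.79e-10), and BOK 190 ± 16 and 120 ± 5.18 CPM (0.66, edgeR adjusted p = 9.29e-09). CASP10 averaged 1.78 ± 0.233 CPM in the knockout on the drug and 0.696 ± 0.223 CPM in the wild type on vehicle (1.35, edgeR adjusted p = 5.06e-05). DFFB, encoding the caspase-activated DNase, averaged 3.02 ± 0.136 CPM in the knockout on the drug and 4.02 ± 0.323 CPM in the wild type on vehicle (log2 fold change -0.41, edgeR adjusted p = 0.0115). BIRC3 averaged 1.3 ± 0.141 and 2.2 ± 0.0936 CPM in the same order (-0.76, edgeR adjusted p = 0.0013), and BIRC5 262 ± 29.4 and 394 ± 13.5 CPM (-0.59, edgeR adjusted p = 1.73e-05). The adaptor TRADD averaged 15.9 ± 1.39 CPM in the knockout on the drug and 9.84 ± 1.07 CPM in the wild type on vehicle (0.69, edgeR adjusted p = 2e-06). TNFRSF10C, encoding a decoy receptor for TRAIL, averaged 2.1 ± 0.0435 and 1.33 ± 0.287 CPM (0.66, edgeR adjusted p = 0.0114). Of the regulators, TRIB3 averaged 14.4 ± 1.13 CPM in the knockout on the drug and 32.5 ± 0.702 CPM in the wild type on vehicle (-1.17, edgeR adjusted p = 2.57e-10), and NFKB1 34.9 ± 0.912 and 57.6 ± 3.26 CPM (-0.72, edgeR adjusted p = 2.36e-09).

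**Figure D5:**
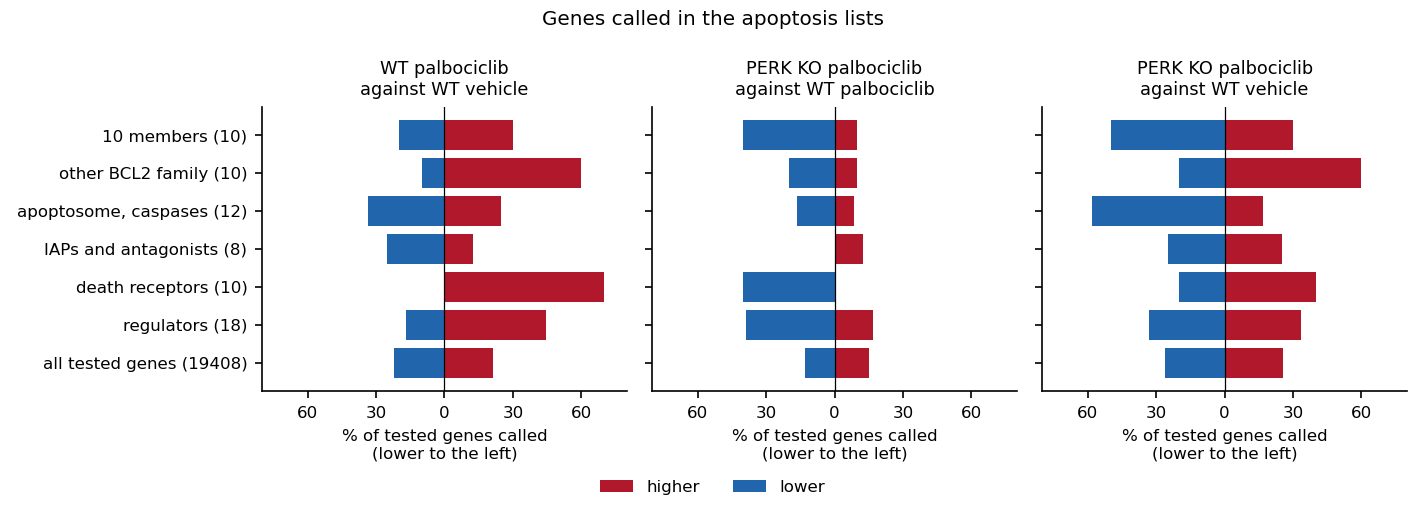
Share of tested genes called higher (red, right) and lower (blue, left) in the 10 members, 5 lists of other apoptosis genes and all tested genes, in 3 comparisons. Bars start at 0 and numbers in brackets give the genes tested. In the list labelled death receptors, which also holds adaptors, 7 of 10 genes were higher and 0 lower with palbociclib in WT cells. In PERK KO against WT cells on palbociclib, 0 genes of that list were higher and 4 lower.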

How the data were processed

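Poly(A) RNA of U2OS cells was sequenced in 9 libraries. The authors deposited 1 table of raw gene counts, neither normalized nor pooled, with a column for each library. The submitters' processing notes name STAR 2.7.9a as well as Trim Galore, FastQC, CASAVA and DESeq2, and the build hg38. Which program counted reads, whether it used strand and from which annotation is not given in the sources used here. Symbols matched 62700 of 70116 IDs, and positions and exon lengths came from GENCODE release 29 (GRCh38), matched by ID for 58261.

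Counts were tested with edgeR 4.0.16 (R 4.3.3, limma 3.58.1): quasi-likelihood F test, robust fitting, TMM factors (0.977 to 1.01), default filter on low counts, and a single model for all 3 groups (6 residual degrees of freedom). Benjamini-Hochberg adjustment covered 19408 genes, and calls were made at an adjusted p under 0.05. SEs were derived from the log2 fold change and its F statistic. Figures used Python 3.11.15 and matplotlib 3.10.9. The code was tested on simulated data. At these depths BIK, with at most 48 counts in a library, is the least precise member.

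Same-numbered sets deviated together (r 0.176 to 0.541 over 9 pairs and 12932 genes, different sets -0.401 to 0.0714). The numbers were thus taken to pair libraries, but the main model had no term for the set. A model with the set as a replicate block, DESeq2 1.42.0, RLE size factors, no filter, only the 6 libraries compared and each library left out were alternatives. Replicates of a group differed by more than sampling noise in every pair (chi-square 3.45 to 10.7 for each degree of freedom).

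All members were reported. From each list of pathway genes, at most 2 called genes per comparison with the largest change at a mean of at least 1 CPM are given with values. Members and lists were chosen with earlier results of these data known. Protein sequences were not used here, and 1 gene that the rule names is not reported here.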

Additional observations from a re-analysis of the deposited data

How the results depend on the processing

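Fold changes of members were recomputed under 14 alternatives. Of 420 values, 396 kept their direction and side of the threshold, 14 kept their direction and lost the call, 8 gained it and 2 changed sign. Both sign changes were in genes that were not called: BCL2L2 with palbociclib in wild-type cells (0.007 with only the 6 libraries compared), and BCL2L11 in the knockout on the drug (-0.123 to 0.012 when 1 library was left out). With 1 library left out, 3 to 6 members were called in the knockout against wild-type cells on palbociclib, the lowest without knockout library 1. Between the knockout on palbociclib and vehicle-treated wild-type cells the range was 5 to 8, the lowest without vehicle library 3 or knockout library 1. The replicate block raised the members called with palbociclib in wild-type cells to 7, adding HRK and BMF, and changed no other call of a member. Among all genes it raised the number called from 8478 to 9762 in that comparison. In knockout against wild-type cells on the drug the number rose from 5419 to 7068, and against vehicle-treated wild-type cells from 10036 to 11154. The background shares given above are those of the model without the block. BCL2 and HRK in both knockout comparisons kept their calls under all 14, as did MCL1 in knockout against wild-type cells on palbociclib. So did BID, BIK and BCL2L11 between the knockout on palbociclib and vehicle-treated wild-type cells. With palbociclib in wild-type cells, BID, MCL1, BCL2L1, BCL2L11 and BCL2 kept their calls under all 14. The cause of the changes was not tested. Counts limit BIK, and gene-level counts limit all statements on splice forms.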
